A study of Homo sapiens with 2 samples.

Results

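The genes described here are the long intergenic noncoding RNA genes that carry a LINC symbol, other than LINC00467, in BE(2)-C neuroblastoma cells treated with linc00467 siRNA. Members were all probe sets whose gene symbol in the platform annotation was LINC followed by a number of the standard length, with LINC00467 left out. The rule used only names and no measured value. It gave 544 probe sets of 457 genes, of 16098 probe sets of 14884 genes with a name and 53617 probe sets in all. RefSeq types all 544 as long noncoding RNA (lncRNA).

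BE(2)-C is an established human neuroblastoma cell line, a tumour of the peripheral sympathetic nervous system, in which the MYCN gene is amplified. The cells were transfected for 48 hours with linc00467 siRNA or with control siRNA, and total RNA was hybridised to an Affymetrix HuGene-2_0-st array, 1 array per condition and 2 arrays in all. Both arrays are of the same line, so all values are for one cell line and one siRNA against the target. The sample text of the linc00467 siRNA array also calls the knocked-down RNA lncMycN, a name that the other labels of that sample do not use. There are no replicates, so no p-value or error between cultures can be given, and the description rests on the level on each array and on how the LINC genes stood among all named genes.

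LINC symbols are given to lncRNA genes that lie between protein-coding genes and that had no described function by which to name them. Most lncRNAs are transcribed by RNA polymerase II, and many are spliced and polyadenylated like mRNAs, at lower levels and in fewer cell types than most mRNAs. Some act on chromatin or on the gene next to them, others bind proteins or microRNAs, and for many no function is known. A knock-down of one lncRNA therefore raises the question of which other lncRNAs differ in the same cells. Whether any of them shares sequence with LINC00467 or with the siRNA was not examined.

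The targeted RNA was measured by 1 probe set. LINC00467, which lies on chromosome 1, read 5.67 on the log2 scale with linc00467 siRNA and 6.55 with control siRNA, a difference of -0.88 and a fold of 0.543. The array labelled as the knock-down thus had the lower level of the target. Of the adrenergic neuroblastoma markers 8 of 10 had a named probe set, and their levels ran from 6.41 to 10.96 with linc00467 siRNA and from 6.52 to 11.09 with control siRNA, with a median difference of -0.24. Of the Schwann cell, blood and endothelial markers 2 of 4, 1 of 5 and 3 of 4 were measured, and none of these stood above the level that silent gene families reach. Of 6 mesenchymal markers SNAI2 did on both arrays, with 11.76 with linc00467 siRNA and 11.43 with control siRNA, as did 1 of 3 probe sets of VIM, with 8.57 with linc00467 siRNA and 8.41 with control siRNA. A lower level on an array of bulk RNA cannot be told apart as less RNA per cell or fewer cells that express the gene, and this holds for every value below.

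Most LINC genes had low signals. On the log2 scale the lowest, median and highest level were 1.57, 3.97 and 11.49 with linc00467 siRNA, and 1.57, 3.95 and 11.25 with control siRNA. All named probe sets together had a median of 5.68 with linc00467 siRNA and 5.67 with control siRNA. As a guide to signal without expression, 87 probe sets of olfactory receptor and keratin-associated protein genes, families that are not expected to be transcribed in these cells, had a median of 3.74 with linc00467 siRNA and 3.67 with control siRNA. Their highest level was 8.46 on both arrays, and their 95th percentile was 6.37 with linc00467 siRNA and 6.40 with control siRNA. The targeted LINC00467 stood above it with control siRNA (6.55) and below it with linc00467 siRNA (5.67). Of the LINC probe sets 46, or 8.46%, stood above this percentile on both arrays, against 6237, or 38.7%, of all named probe sets. A LINC signal above it on both arrays is called clear below, although it can lie under the highest silent level. For the other LINC probe sets a signal could not be told from that of silent families by level alone, and a difference between the arrays there has a correspondingly weaker base.

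The LINC genes as a whole had a median difference, linc00467 siRNA minus control siRNA, of 0.00, as did all named probe sets. Single differences lay between -0.98 and 0.85. Of the 544 probe sets 190 were higher with linc00467 siRNA, 162 were lower and 192, or 35.3%, had exactly the same value on both arrays. Among all named probe sets 3689, or 22.9%, had exactly the same value on both. Because neither the higher nor the lower ones were a majority, the equal values set both medians to 0.00. With equal values left out the median of the LINC probe sets was 0.016. The robust SD of the differences, which is taken from the median absolute deviation, was 0.066 for LINC probe sets and 0.125 for all named probe sets. The equal values lower both.

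At a fold of at least 1.8, no LINC probe set was higher with linc00467 siRNA, where 0.224% of named probe sets were, and 1 was lower, where 0.578% of named probe sets were. At a fold of at least 1.5, 3 were higher (background 1.09%) and 7 were lower (background 1.93%). At a fold of at least 1.2, 30 were higher, which is 5.51% of the LINC probe sets against a background of 8.5%, and 36 were lower, which is 6.62% against a background of 9.78%. In both directions together 12.1% of LINC probe sets and 18.3% of all named probe sets passed 1.2 fold. No LINC probe set reached 2 fold, where 0.112% of named probe sets were higher and 0.224% were lower. At every one of these folds the LINC share was below that of all named probe sets. The LINC genes also had the lower signals, and the part of signal in these shares was not tested beyond the counts by level that follow. As bright as the median named probe set or brighter were 71 LINC probe sets, of which 6 (8.45%) were higher and 10 (14.1%) were lower by 1.2 fold. Of all named probe sets that were as bright, 10.7% and 13.4% were. By 1.5 fold 1 of the 71 (1.41%) was higher and 5 (7.04%) were lower, against 1.35% and 2.97% of the named ones. By 1.8 fold none was higher and 1 (1.41%) was lower, against 0.323% and 0.907%. At these levels the LINC share was thus not below that of named probe sets at every fold.

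**Figure D1:**
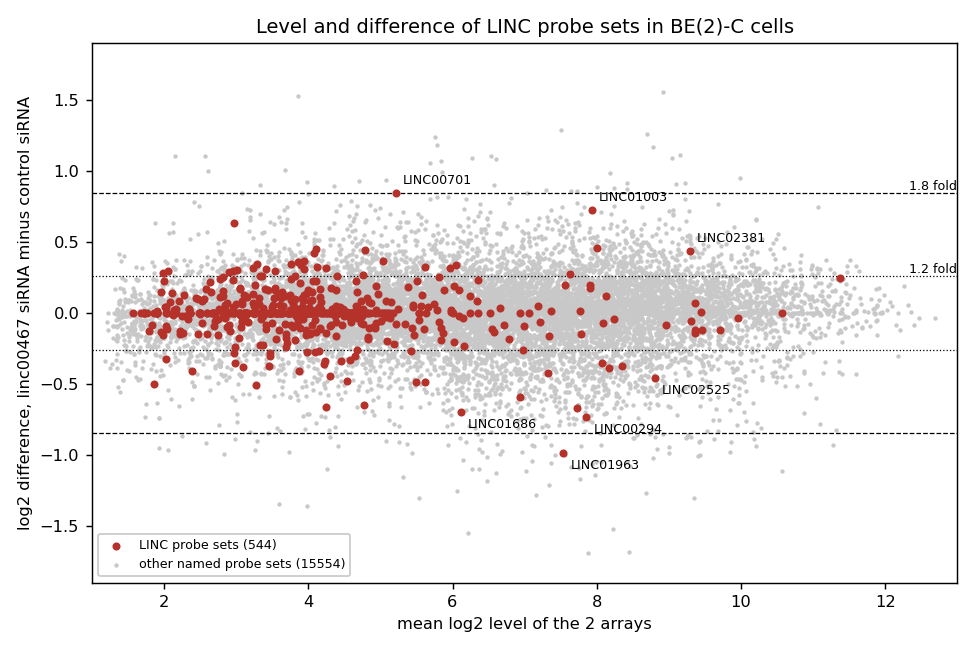
Each point is a probe set, with the mean log2 level of both arrays on the horizontal axis and the log2 difference, linc00467 siRNA minus control siRNA, on the vertical axis. LINC probe sets are red and all other named probe sets grey, and the dotted and dashed lines mark 1.2 and 1.8 fold. Most LINC probe sets lie at levels below 5 and near 0, and LINC01963 is the one below the lower 1.8 fold line.

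By level, the share of LINC probe sets past 1.2 fold in either direction was 8.85% of 113 below a level of 3, 9.88% of 172 from 3 to 4, 11.3% of 150 from 4 to 5, 14.3% of 49 from 5 to 6 and 13.3% of 30 from 6 to 7.5. Of all named probe sets 13.2% passed below a level of 3, 13% from 3 to 4, 11.4% from 4 to 5 and 14% from 5 to 6. At 7.5 and over the LINC share was 36.7%, or 11 of 30, with 4 higher and 7 lower, against 25.8% of all named probe sets at that level. From 6 to 7.5 it was the other way, with 13.3% of LINC probe sets against 23.5% of named ones. With 30 probe sets in each of these bands, and several of them from one gene, the order of the 2 shares differs from band to band. The 11 at the highest levels are LINC01003, LINC00630, LINC02381 and LINC00839 on the higher side, and LINC01963, LINC00294, LINC02525, LINC00963, 1 probe set of LINC01061 and both of LINC00693 on the lower side.

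**Figure D2:**
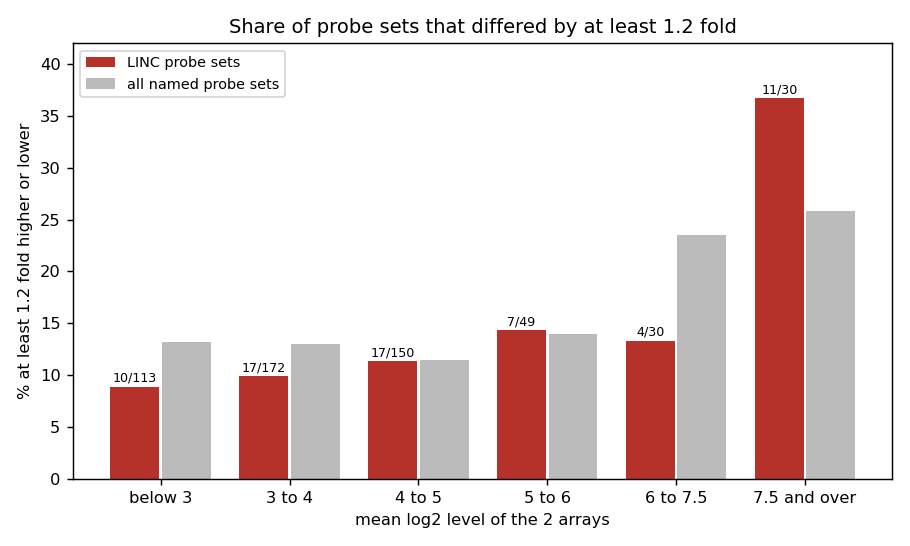
Bars give the percentage of probe sets past 1.2 fold in either direction, by the mean log2 level of both arrays. Red bars are LINC probe sets, with their count over the number in the band, and grey bars are all named probe sets. LINC bars are below the grey ones below a level of 4 and from 6 to 7.5, about level from 4 to 6, and above them at 7.5 and over, where 11 of 30 passed.

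The largest negative difference was that of LINC01963, on chromosome 2, which RefSeq also lists as PKI55 and which lies next to XRCC5. It had 7.04 with linc00467 siRNA and 8.02 with control siRNA, a difference of -0.98 and a fold of 0.506, and was the only LINC probe set past 1.8 fold. Its drop on this array was of a size with that of the targeted LINC00467. XRCC5, a subunit of the Ku DNA end-binding protein, had 11.95 on both arrays, so the difference of LINC01963 was not shared by the coding gene beside it.

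LINC00294, on chromosome 11, had 7.49 with linc00467 siRNA and 8.22 with control siRNA, a difference of -0.73. LINC01686, on chromosome 1 like the target, had 5.77 with linc00467 siRNA and 6.46 with control siRNA, a difference of -0.70. Both stood below the 1.8 fold used above, and LINC01686 was above the silent families' 95th percentile on the control array only. LINC00641, on chromosome 14, had 6.64 with linc00467 siRNA and 7.23 with control siRNA (-0.59) at 1 of its 2 probe sets. At levels below those of most expressed genes LINC00552 had 3.92 with linc00467 siRNA and 4.58 with control siRNA (-0.66), and LINC03033 had 4.45 with linc00467 siRNA and 5.10 with control siRNA (-0.65). The signals of LINC00552 and LINC03033 lay below the silent families' 95th percentile on both arrays. LINC00622, LINC01126 and LINC00664 had smaller differences of -0.49, -0.48 and -0.48.

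On the other side, LINC00701 on chromosome 10 had the largest positive difference. It had 5.63 with linc00467 siRNA and 4.79 with control siRNA, a difference of 0.85 and a fold of 1.799 that is just short of the limit. Its signal did not reach the 95th percentile of the silent families on either array. LINC01003, on chromosome 7, had 8.29 with linc00467 siRNA and 7.57 with control siRNA, a difference of 0.73 and a fold of 1.65, well above that percentile on both. LINC00630, on the X chromosome, had 8.23 with linc00467 siRNA and 7.77 with control siRNA (0.46). LINC02381 lies beyond HOXC4 at the end of the HOXC homeobox cluster on chromosome 12, and had 9.51 with linc00467 siRNA and 9.07 with control siRNA (0.43). LINC01003, LINC00630 and LINC02381 were thus the LINC genes with both a clear signal, above that percentile on both arrays, and the largest excess with linc00467 siRNA. Of these genes only LINC02381 also stood above the highest silent level of 8.46.

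The rest of the 10 largest positive differences at or above the median level of the LINC probe sets were those of LINC00965 (0.45), LINC01018 (0.44), LINC00955 (0.43), LINC00921 (0.36), LINC00205 (0.34) and LINC01606 (0.33). Of these 6 only LINC00205, on chromosome 21, had a level near 6, with 6.22 with linc00467 siRNA and 5.88 with control siRNA. Below that median level LINC01300, named after its value was seen, had 3.28 with linc00467 siRNA and 2.65 with control siRNA (0.64) and is the third of the 3 that passed 1.5 fold.

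**Figure D3:**
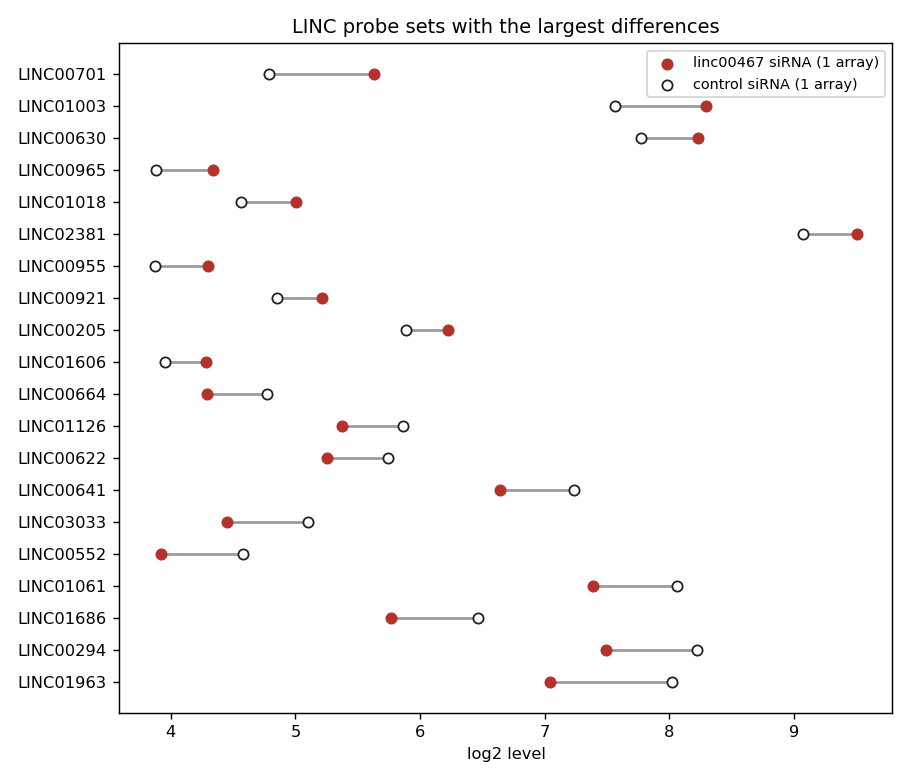
The log2 level with linc00467 siRNA (filled red) and control siRNA (open) is shown for the 10 LINC probe sets furthest above and the 10 furthest below 0, among those at or above the median level of all LINC probe sets, 1 array each and without error bars. The differences run from 0.85 for LINC00701 at the top to -0.98 for LINC01963 at the bottom.

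The region before a gene's start holds its core promoter, and the sequences of 5 of these genes are shown because they cover both directions and promoters with and without GC boxes. They are RefSeq sequences of build GRCh38.p14, each with 250 bases before and 50 bases after the annotated start on the + strand. LINC00294 (chr11:33075900-33076199) and LINC01686 (chr1:182614890-182615189) were lower, and LINC01003 (chr7:152463874-152464173), LINC02381 (chr12:54125821-54126120) and LINC00205 (chr21:45287802-45288101) were higher with linc00467 siRNA. Capitals mark GGGCGG or CCGCCC, the GC box bound by Sp1-type factors on either strand, and CACGTG, the E-box to which Myc proteins bind.
LINC00294: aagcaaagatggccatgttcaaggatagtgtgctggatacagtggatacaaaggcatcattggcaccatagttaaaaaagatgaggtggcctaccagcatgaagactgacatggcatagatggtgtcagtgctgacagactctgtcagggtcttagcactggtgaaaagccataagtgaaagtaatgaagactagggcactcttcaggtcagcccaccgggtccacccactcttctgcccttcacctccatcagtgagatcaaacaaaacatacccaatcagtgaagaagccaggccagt
LINC01686: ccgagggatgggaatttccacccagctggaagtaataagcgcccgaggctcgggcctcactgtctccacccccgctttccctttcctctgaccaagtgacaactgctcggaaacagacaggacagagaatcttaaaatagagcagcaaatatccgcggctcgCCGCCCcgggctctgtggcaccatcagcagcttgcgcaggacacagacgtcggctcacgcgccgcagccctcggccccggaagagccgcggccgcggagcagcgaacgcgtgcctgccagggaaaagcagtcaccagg
LINC01003: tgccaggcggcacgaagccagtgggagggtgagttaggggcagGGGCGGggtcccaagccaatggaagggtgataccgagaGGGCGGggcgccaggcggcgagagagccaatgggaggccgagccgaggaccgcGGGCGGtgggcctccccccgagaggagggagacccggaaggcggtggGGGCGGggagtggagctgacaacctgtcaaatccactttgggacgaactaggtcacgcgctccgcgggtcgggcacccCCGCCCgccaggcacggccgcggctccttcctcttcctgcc
LINC02381: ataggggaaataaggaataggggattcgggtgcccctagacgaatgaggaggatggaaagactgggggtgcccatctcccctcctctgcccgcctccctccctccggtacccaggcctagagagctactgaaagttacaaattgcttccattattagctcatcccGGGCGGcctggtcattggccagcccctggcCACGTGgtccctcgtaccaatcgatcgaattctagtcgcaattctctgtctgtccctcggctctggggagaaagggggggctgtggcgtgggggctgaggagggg
LINC00205: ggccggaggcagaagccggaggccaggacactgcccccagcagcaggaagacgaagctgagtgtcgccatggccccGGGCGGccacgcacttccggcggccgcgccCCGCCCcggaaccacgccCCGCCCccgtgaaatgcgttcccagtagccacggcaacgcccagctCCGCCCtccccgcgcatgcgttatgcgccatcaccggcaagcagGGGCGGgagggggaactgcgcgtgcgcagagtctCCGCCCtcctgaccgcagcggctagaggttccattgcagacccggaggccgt

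The promoter of LINC00294 held none of these motifs and 1 CpG. That of LINC01686 held 1 GC box and 26 CpGs, and that of LINC02381 held 1 GC box, 1 E-box and 13 CpGs. LINC01003 and LINC00205 held 5 and 6 GC boxes, with 28 and 34 CpGs. LINC00630, also higher with linc00467 siRNA, had no GC box in its promoter, which is not printed.

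Over all LINC genes the table held 348 promoters of 326 genes. A GC box was in 92 of them, or 26.4%, against 25.5% of other lncRNA promoters of the table, 56.3% of protein-coding promoters and 45% of all promoters of this length. The E-box CACGTG was in 7.18%, against 5.35% of other lncRNA promoters and 7.26% of all promoters. A TATA box, TATAAA or TTTATA, was in 14.9%, against 15.1% of other lncRNA promoters and 11.5% of all promoters. The median GC content was 49.3%, with a median of 5 CpGs, where other lncRNA promoters had 50% and 5 CpGs and protein-coding promoters had 62.3% and 21 CpGs. No difference between these classes was tested. Of 80 LINC genes with a GC box 14, or 17.5%, had a probe set above the silent families' 95th percentile on both arrays, against 13 of 246, or 5.28%, of those without. By 1.2 fold 6 of the 80 were higher and 6 were lower, and 15 of the 246 were higher and 15 were lower. Neither direction was thus the more frequent in either class. Of all named probe sets 8.5% were higher and 9.78% were lower, and both classes lay below these shares.

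Signals over all LINC genes were highest for LINC00987, on chromosome 12, whose probe set 17117554 had 11.49 with linc00467 siRNA and 11.25 with control siRNA (0.24). Its other probe set had 5.05 on both arrays. LINC01347 followed with 10.57 on both arrays at its brightest probe set, then LINC01000 with 9.94 with linc00467 siRNA and 9.98 with control siRNA. These 3 probe sets were within 1.2 fold, which does not hold of all bright ones, as the shares by level show. Of the 10 brightest, 5 belonged to LINC01061, with levels from 9.27 to 9.65 with linc00467 siRNA and from 9.33 to 9.77 with control siRNA. Levels of different probe sets depend on their probes as well as on RNA amount, so this order is one of signal and not of RNA molecules. Whether the brightest probe sets also pick up RNA of similar sequence from other genes was not examined.

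Several probe sets of one gene give a check within the array, although they are no replicates of a condition. Of the 457 genes 405 had 1 probe set and 52 had several, with 139 probe sets between them. In 7 of the 52 genes all probe sets differed in one direction, in 10 they ran in opposite directions and in 8 all were exactly equal on both arrays. In 2 genes every probe set was past 1.2 fold, both lower. LINC00693, on chromosome 3, had 7.98 with linc00467 siRNA and 8.37 with control siRNA at one probe set (-0.39), and 8.16 with linc00467 siRNA and 8.54 with control siRNA at the other (-0.38). The 2 probe sets of LINC00693 gave the same difference to 0.01, at a clear signal. LINC00664, on chromosome 19, had -0.48 and -0.34 at levels between 4 and 5.

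In 5 genes the differences of the probe sets lay more than 0.3 apart. LINC01061, on chromosome 4, had 7.39 with linc00467 siRNA and 8.06 with control siRNA (-0.67) at 1 of 7 probe sets, while its 5 brightest had -0.06 to -0.14 and the last had 0.00. None of the 7 was higher with linc00467 siRNA, and the size of the difference varied. The second probe set of LINC00641 had 3.39 with linc00467 siRNA and 3.35 with control siRNA (0.04), so the -0.59 of that gene rests on 1 probe set, annotated to another transcript of it. LINC00173 had 0.36, 0.34, 0.06 and -0.13, LINC00494 had 0.00 and -0.45, and LINC03006 had 0.00, -0.24 and -0.35. These last genes had levels below 6.

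Values were also shared between probe sets. The 544 LINC probe sets held 473 distinct pairs of values, and 105 of them had a pair of values that another LINC probe set also had. LINC01015 had 8 probe sets with 3 distinct pairs, and LINC01623 had 7 with 3. Such probe sets are counted singly above, and with the probe sets of each gene averaged 28 of 457 genes were higher and 31 were lower by 1.2 fold. Of all named probe sets, which were not averaged, 8.5% were higher and 9.78% were lower.

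**Figure D4:**
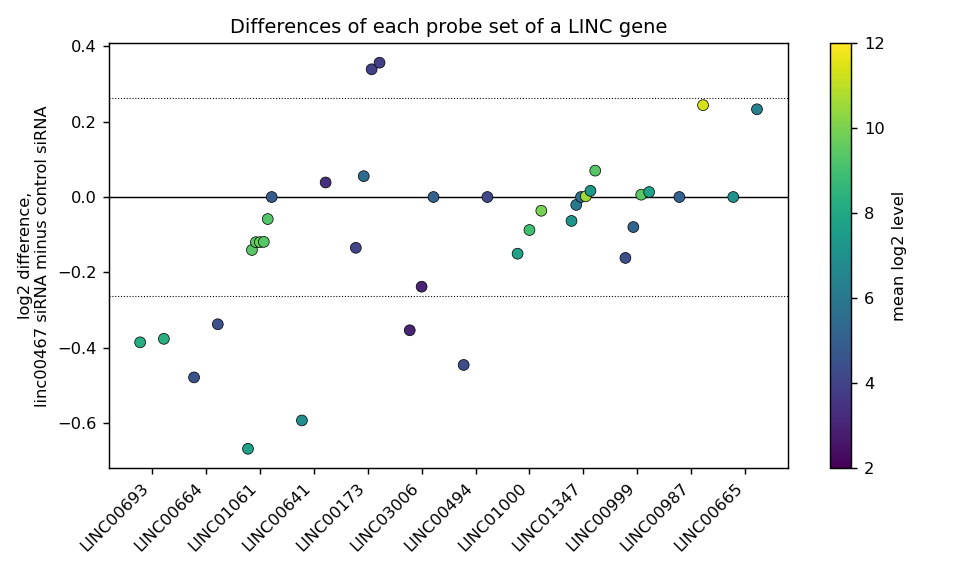
Each point is a probe set of a LINC gene with several of them, with the log2 difference, linc00467 siRNA minus control siRNA, on the vertical axis and the mean log2 level as colour; dotted lines mark 1.2 fold. Both points of LINC00693 lie together near -0.38, and those of LINC01061 spread from -0.67 to 0.00.

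Some LINC genes have been described in cancer cells, and 13 of 19 such genes on a fixed list were measured. By 1.2 fold 1 was higher and 1 was lower, where 8.5% of all named probe sets were higher and 9.78% were lower. The median difference was 0.01. LINC00839 had 7.77 with linc00467 siRNA and 7.497 with control siRNA (0.27), and LINC00963 had 7.89 with linc00467 siRNA and 8.25 with control siRNA (-0.35). These 2 had clear signals on both arrays. LINC00665 had 7.06 on both arrays at one probe set, and 6.47 with linc00467 siRNA and 6.24 with control siRNA at the other. LINC01116 had 6.38 with linc00467 siRNA and 6.29 with control siRNA. LINC00473, a target of the cAMP-responsive factor CREB, had 3.87 with linc00467 siRNA and 3.64 with control siRNA, and LINC00511, LINC00460 and LINC00261 had 4.04 or less on both arrays. Most genes of this list therefore had a signal within the range of the silent families.

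LINC02525, on chromosome 6, was picked after its values were seen because RefSeq gives it the synonym lncNB1, an lncRNA described in MYCN-amplified neuroblastoma. It had 8.57 with linc00467 siRNA and 9.03 with control siRNA, a difference of -0.46, at one of the higher LINC signals. Described partners of lncNB1 are the ribosomal protein RPL35, the factor E2F1 and the E2F1-driven DEPDC1B. RPL35 had 8.12 with linc00467 siRNA and 8.28 with control siRNA (-0.15). E2F1 had 9.65 with linc00467 siRNA and 10.28 with control siRNA (-0.64), and DEPDC1B had 7.89 with linc00467 siRNA and 8.94 with control siRNA (-1.05). All 3, like LINC02525, had the lower value with linc00467 siRNA, RPL35 by less than 1.2 fold. Of all 16098 named probe sets 5821 also had the lower value with linc00467 siRNA. Since the 3 partners were chosen with their values in view, their shared direction is a description only.

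Some LINC transcripts carry smaller RNAs. LINC00632 is the locus of the circular RNA CDR1-AS, which binds miR-7, and had 6.52 on both arrays. In RefSeq 11 of the LINC genes span 13 small RNA genes, and 1 of these was named on the array. That is MIRLET7D within LINC02603 on chromosome 9, the gene of a let-7 microRNA, a family that represses MYCN and LIN28B. MIRLET7D had 4.97 with linc00467 siRNA and 5.27 with control siRNA (-0.30), and LINC02603 had 3.46 with linc00467 siRNA and 3.54 with control siRNA (-0.07). Neither signal was above the silent families' 95th percentile. The mature microRNA is shown with its seed, bases 2 to 8, in capitals (RefSeq, GRCh38.p14, chr9:94178841-94178862, + strand), since it is the part by which let-7 RNAs pair with their targets.
hsa-let-7d-5p: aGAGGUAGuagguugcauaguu

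Because many lncRNAs are read together with the gene next to them, each LINC gene was set beside the nearest protein-coding gene on either side in RefSeq order. Only coding genes that do not overlap the LINC gene were used. In RefSeq 32 LINC genes overlap a coding gene, and those overlapping genes were left out of the pairs. Of the LINC genes 374 had at least 1 such neighbour with a named probe set, in 552 pairs. Among all pairs the neighbour was higher by 1.2 fold in 8.51% and lower in 10.5%. Beside the 22 LINC genes that were lower by 1.2 fold, 7 of 32 neighbours (21.9%) were lower and 1 (3.12%) was higher. Beside the 20 that were higher, 5 of 28 neighbours (17.9%) were higher and 2 (7.14%) were lower. For LINC genes within 1.2 fold the neighbour was higher in 8.33% and lower in 9.96%. Over all 552 pairs, which share both arrays and in part a neighbour or a LINC gene, Pearson's r was 0.06 and Spearman's rho 0.00. Thus 12 of the 60 pairs with a LINC gene past 1.2 fold had a neighbour past it in the same direction and 3 in the opposite one, and no relation was tested.

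LINC01686 lies between 2 regulators of G protein signalling. RGS16 had 9.30 with linc00467 siRNA and 9.81 with control siRNA (-0.52), and RGS8 had 5.61 with linc00467 siRNA and 6.29 with control siRNA (-0.68). All 3 neighbouring genes were thus lower with linc00467 siRNA, and LINC01686 and RGS8 by nearly the same amount. RGS8 lay below the silent families' 95th percentile on both arrays, and LINC01686 on the linc00467 siRNA array. TCP11L1, before LINC00294, had 6.49 with linc00467 siRNA and 6.87 with control siRNA (-0.38). POFUT2, a protein O-fucosyltransferase whose start lies 157 bases from that of LINC00205 on the opposite strand, had 5.93 with linc00467 siRNA and 5.65 with control siRNA (0.28). LINC00205 and POFUT2 were both higher with linc00467 siRNA, and both lay below that percentile on both arrays.

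The other pairs of one direction had LINC levels below 5, as LINC01132 (-0.27) with the mitochondrial import receptor gene TOMM20 (-0.69), LINC02893 (-0.38) with the death-associated kinase gene DAPK1 (-0.48), LINC00656 (-0.31) with NXT1 (-0.40), LINC01973 (0.26) with TNRC6C (0.59) and LINC01634 (0.34) with the peroxisome gene PEX26 (0.40). LINC00381 (0.30) with KLF12 (0.33) and LINC00955 (0.43) with LRPAP1 (0.31) were of the same kind. In 3 pairs the directions were opposite, those of LINC00839 with ZNF33B (-0.32), LINC01018 with UBE2QL1 (-0.28) and LINC00664 with ZNF429 (0.64). On its other side LINC00664 had ZNF493 (-0.30). The zinc finger genes beside LINC00664 thus went both ways.

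Of the 4 genes LINC00701, LINC01003, LINC00630 and LINC02381, LINC01003 and LINC02381 had a neighbour named on both sides, and LINC00701 and LINC00630 had none named on either side. Beside LINC01003, KMT2C, a histone methyltransferase, had 9.61 with linc00467 siRNA and 9.67 with control siRNA (-0.06), and XRCC2 had 9.34 with linc00467 siRNA and 9.56 with control siRNA (-0.22). Beside LINC02381, HOXC4 had 7.92 with linc00467 siRNA and 7.93 with control siRNA (-0.01), and SMUG1, a uracil-DNA glycosylase, had 6.86 with linc00467 siRNA and 6.98 with control siRNA (-0.12). None of these 4 coding genes was higher with linc00467 siRNA.

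**Figure D5:**
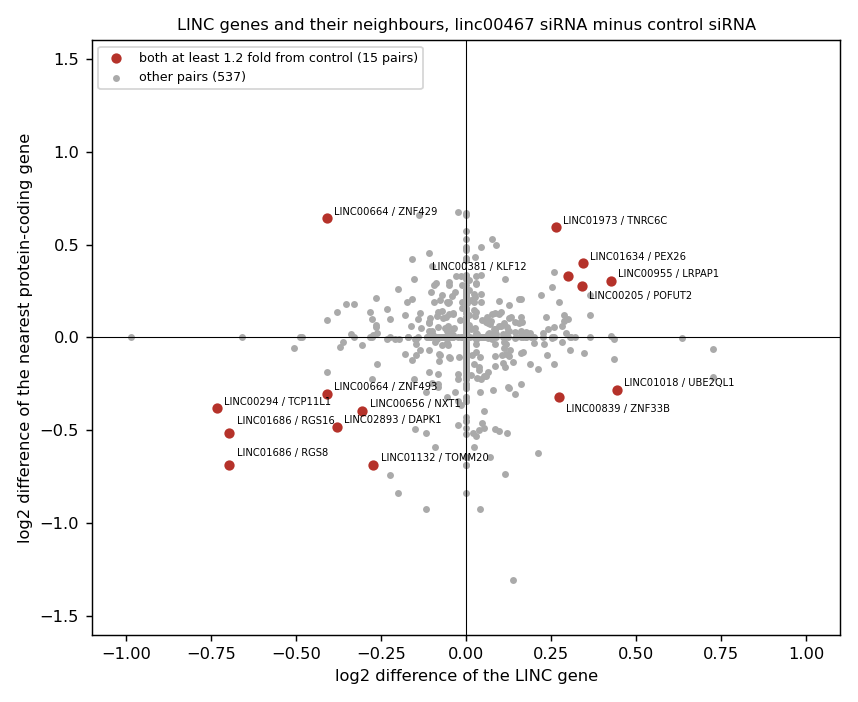
Each point is a LINC gene and the nearest protein-coding gene on one side that does not overlap it. The horizontal axis has the log2 difference, linc00467 siRNA minus control siRNA, of the LINC gene (mean of its probe sets). The vertical axis has that of the coding gene. The 15 pairs in which both were past 1.2 fold are red and named, and 12 of them lie in the quadrants of one direction.

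A start within 1000 bases of a protein-coding start on the other strand was found for 8 of 326 LINC genes, of which 6 had a partner named on the array. Of these 6 pairs 2 ran in the same direction, 2 in opposite directions, and 2 had a difference of 0 in at least 1 gene. LINC01134 had 5.24 with linc00467 siRNA and 5.33 with control siRNA (-0.09), and C1orf174, 132 bases away, had 9.44 with linc00467 siRNA and 9.15 with control siRNA (0.28). LINC00205 with POFUT2 was the only one of the 6 pairs in which both passed 1.2 fold. In the other 5 pairs at most 1 gene did.

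By chromosome, LINC probe sets past 1.2 fold lay on every one with LINC probe sets, but unevenly. Over all chromosomes 5.51% of LINC probe sets were higher and 6.62% were lower by 1.2 fold, against 8.5% and 9.78% of all named probe sets. Chromosome 1, which holds LINC00467, had 56 LINC probe sets, 10.3% of all, where 9.47% of named probe sets lie, and of these 1 was higher and 3 were lower by 1.2 fold. Chromosome 2 had 4 lower and none higher of 40, and chromosome 12 had 4 higher and none lower of 32. Chromosome 8 had 4 higher and 5 lower of 24, and chromosome 9 had 3 higher and 2 lower of 10. Shares of named probe sets past 1.2 fold were not counted for single chromosomes.

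Other named lncRNA genes give a view of the same RNA class without the LINC symbol. Of 1050 such probe sets 58 (5.52%) were higher and 93 (8.86%) were lower by 1.2 fold, and 14.4% passed in either direction, against 12.1% of LINC probe sets. Among those as bright as the median named probe set, 17 of 228 (7.46%) were higher and 43 (18.9%) were lower, where LINC probe sets had 8.45% and 14.1%. Both sets of lncRNAs held more probe sets lower than higher at such levels, as did all named probe sets. After quantile normalization 9 LINC probe sets at such levels were higher and 10 were lower. Of the other lncRNA probe sets 21 were higher and 35 were lower, so these kept more lower than higher. All named probe sets turned round, with 1043 higher and 925 lower.

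Of 56 well-known lncRNA genes on a fixed list 36 were measured, with 2 higher and 9 lower by 1.2 fold and a median difference of -0.03, where 8.5% of all named probe sets were higher and 9.78% were lower, and 10.7% and 13.4% of those as bright as the median. NORAD, which binds Pumilio proteins, had 11.44 with linc00467 siRNA and 10.69 with control siRNA (0.74). DANCR, which restrains differentiation, had 6.86 with linc00467 siRNA and 7.57 with control siRNA (-0.72), and HAND2-AS1, divergent to the sympathetic factor HAND2, had 9.85 with linc00467 siRNA and 10.48 with control siRNA (-0.64). SNHG15 had 8.27 with linc00467 siRNA and 8.80 with control siRNA (-0.52), and EPB41L4A-AS1 had 6.08 with linc00467 siRNA and 6.49 with control siRNA (-0.41). None of the 36 reached 1.8 fold, while LINC01963 is the extreme of 544 LINC probe sets. Of all 1050 other lncRNA probe sets 2 (0.19%) were higher and 3 (0.286%) were lower by 1.8 fold. The shares over all named probe sets were 0.224% and 0.578%. Differences of these 1050 ran from -0.93 to 1.09, so LINC01963 did not differ by more than every other lncRNA.

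Most of the measured genes that act on lncRNAs were within 1.2 fold. Over all named probe sets 8.5% were higher and 9.78% were lower by 1.2 fold. Among those as bright as the median these shares were 10.7% and 13.4%. Of 25 genes of the nuclear RNA exosome, which degrades many lncRNAs, and its adaptors, 19 were measured, and only EXOSC5, a core subunit, passed 1.2 fold, with 9.74 with linc00467 siRNA and 10.58 with control siRNA (-0.84). Of 11 genes of Polycomb repressive complex 2, a histone methyltransferase complex that many lncRNAs bind, 9 were measured, and only EZH1, one of its catalytic subunits, passed, with 8.18 with linc00467 siRNA and 8.59 with control siRNA (-0.41). Of 13 genes of the RNA interference machinery, through which siRNAs act, 6 were measured. TNRC6C had 9.43 with linc00467 siRNA and 8.84 with control siRNA (0.59), and TNRC6A had 9.69 with linc00467 siRNA and 9.15 with control siRNA (0.54). These encode GW182 scaffold proteins of the silencing complex, and no gene of the list was lower by 1.2 fold. The median difference of each of the 3 lists was 0.00, the value of genes with exactly the same level on both arrays.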

How the data were processed

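RNA of BE(2)-C cells was measured on 1 array per condition, linc00467 siRNA or control siRNA, 48 hours into the transfection. The values deposited by the authors are log2 levels, 1 for each probe set and array. Bioconductor in R is named in the methods of the study, and MAS5 in the submitters' processing notes. Their versions, how the arrays were normalized and the build behind the probe sets were not given in the sources used here, and background treatment stayed as the authors made it.

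Differences were computed as linc00467 siRNA minus control siRNA on the log2 scale, and folds as 2 raised to the difference. Of 53617 probe sets 37519 had no gene name here and were left out of counts, and none had several names. Gene types, chromosomes and gene order came from RefSeq GRCh38.p14, as did the promoters and microRNA. With 1 array per condition no test was run. An array has no read depth, and their number limits the precision. Values of a gene in lists and pairs are means over its probe sets.

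Named LINC genes were those at or past 1.8 fold, the 10 largest differences in each direction among LINC probe sets at or above their median level of 3.97, the 10 brightest, genes whose probe sets differ by over 0.3, and members of the fixed lists. Members and lists were chosen with earlier results of these data known. Of other lists only genes with the largest differences are named. Alternatives were centring, quantile normalization, lowess (fraction 0.2), a floor at the silent families' median, averaged probe sets, a limit to the named median level, equal values left out, current RefSeq symbols, and folds of 1.5 and 2. Scripts ran in Python 3.11.15 with numpy 2.4.6, pandas 2.3.3, statsmodels 0.14.6 and matplotlib 3.10.9 and were tested on simulated data.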

Additional observations from a re-analysis of the deposited data

How the results depend on the processing

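No paired analysis was possible because each condition had 1 array, and no replicate could be left out. The count of LINC probe sets at least 1.8 fold higher with linc00467 siRNA was 0 as deposited, 1 after quantile normalization and 3 at a fold of 1.5, and that of those lower was 1 as deposited, 7 at a fold of 1.5 and 0 at a fold of 2. The count at least 1.2 fold higher was 30 as deposited. It was 19 with a floor at the silent families' median (3.74 with linc00467 siRNA and 3.67 with control siRNA), 6 among probe sets at or above the named median level, 3 at a fold of 1.5 and 0 at a fold of 2. The count at least 1.2 fold lower was 36 as deposited, 10 at or above the named median level, 7 at a fold of 1.5 and 0 at a fold of 2. The median difference was 0.00 as deposited and 0.074 with that floor, which sets each array to its own value, and probe sets below it that had been lower with linc00467 siRNA took that value. These were 2 of LINC03006 (0.074 against -0.35 and -0.24 as deposited), 1 of LINC00312 (-0.15 as deposited) and that of LINC01139 (-0.09 as deposited). With the same floor of 3.71 on both arrays, an alternative chosen after seeing the data, the median was 0.00 and 19 were higher, and 218 LINC probe sets lay below it on both arrays.

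Of 58 single probe set results, all 58 stayed within 0.125, the robust SD over named probe sets, under quantile normalization and lowess. Centring could move none of them, because the median difference over all probe sets was 0.00. Likewise, averaging the probe sets of a gene cannot move a gene with 1 probe set. With the floor 53 did and 4 of the 58 changed sign, and with the probe sets of a gene averaged 47 did and 3 changed sign, those of 1 probe set each of LINC00173, LINC00641 and LINC00999. With lowess 2 results changed sign, both within 0.01 of 0 as deposited. Quantile normalization raised the share of higher among LINC probe sets past 1.2 fold to 53.5%, against 45.5% as deposited, and that share among all named probe sets to 54.1%, against 46.5% as deposited, so that 1611 named probe sets were higher and 1368 lower.

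The differences are of 1 culture per condition, and the part of variation between cultures in them was not tested. Most LINC signals lay within the range of silent families, which limits what can be read from their differences.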
